A study of Mus musculus with 12 samples.

Results

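The matrix proteases of the Mmp, Adam and Adamts families and the Timp genes that inhibit them were examined in mouse quadriceps muscle. They were taken by name and biotype: every protein-coding gene whose symbol is Mmp, Adam, Adamts or Timp followed by digits. This gave 79 of the 43346 listed genes, of which 23 are Mmp, 33 Adam, 19 Adamts and 4 Timp genes. Quadriceps mRNA of C57BL/6 mice was sequenced in 12 libraries, 4 in each of 3 groups. Young mice were 6 months old, and no gavage is stated for them. The mice of both old groups were aged 24 months and had been gavaged since month 20, on 3 days of every 2 weeks. Old vehicle mice received the solvent alone, made of Phosal 50 (60%), polyethylene glycol (30%) and ethanol (10%). D+Q mice received dasatinib, a tyrosine kinase inhibitor, at 5 mg/kg together with quercetin, a plant flavonoid, at 50 mg/kg. Given together, these drugs are known as a senolytic, meant to clear senescent cells. Age and gavage therefore cannot be told apart between old vehicle and young, and both old groups share the gavage.

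Matrix metalloproteinases and ADAMTS enzymes are secreted or membrane-bound zinc proteases that cut collagens, proteoglycans and other proteins of the extracellular matrix, while most catalytic ADAMs sit in the cell membrane and shed the outer parts of membrane proteins. TIMPs bind the active site of these enzymes and block it. In skeletal muscle these genes are known mainly from the connective tissue around the fibres, where fibroblasts build and remodel the collagen sheath.

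Library totals ran from 26715140 to 49792488 reads, so that 3 reads corresponded to between 0.0561 and 0.106 CPM, the read count scaled to the library total. Muscle fibre markers summed to between 105115 and 154749 CPM in every library. Whether each library came from its own mouse is not stated, so p-values cover only the spread among the libraries of a group, which may be technical. Young replicate 2 had the lowest median correlation with its own group, 0.971, against 0.979 to 0.990 elsewhere, and young replicate 4 lay farthest out on the first principal component. Values without them are given where they alter a result. In bulk tissue, fewer cells of a type and less RNA per cell cannot be told apart.

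The start regions of the 3 procollagen N-propeptidases Adamts2, Adamts3 and Adamts14 are shown because Adamts3 was the gene past the threshold and the others share its role. These enzymes trim the amino-terminal propeptide from fibrillar procollagens, and ADAMTS3 also cuts VEGF-C, a lymphatic growth factor. RefSeq promoters of build GRCm38.p6, 250 bases before to 50 after the gene start, matched 49 of the 79 genes. Written 5′ to 3′ on the gene's own strand, Adamts3 lies at chr5:89883285-89883584 on the minus strand, Adamts2 at chr11:50601835-50602134 on the plus strand and Adamts14 at chr10:61273370-61273669 on the minus strand. Capitals mark GGGCGG, the SP1 box, read on either strand, with overlapping matches counted.
Adamts3: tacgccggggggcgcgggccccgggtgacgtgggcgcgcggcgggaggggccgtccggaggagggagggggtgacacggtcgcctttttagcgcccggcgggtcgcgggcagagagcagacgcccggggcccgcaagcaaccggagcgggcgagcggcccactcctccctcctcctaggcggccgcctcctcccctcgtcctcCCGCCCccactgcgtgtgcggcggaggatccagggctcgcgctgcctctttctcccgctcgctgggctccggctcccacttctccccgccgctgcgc
Adamts2: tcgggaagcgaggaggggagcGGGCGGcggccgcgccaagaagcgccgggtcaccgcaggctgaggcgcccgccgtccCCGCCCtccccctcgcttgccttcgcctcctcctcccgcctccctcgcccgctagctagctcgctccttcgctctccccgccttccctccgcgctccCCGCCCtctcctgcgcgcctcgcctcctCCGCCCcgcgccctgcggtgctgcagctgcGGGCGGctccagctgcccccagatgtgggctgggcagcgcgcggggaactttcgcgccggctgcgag
Adamts14: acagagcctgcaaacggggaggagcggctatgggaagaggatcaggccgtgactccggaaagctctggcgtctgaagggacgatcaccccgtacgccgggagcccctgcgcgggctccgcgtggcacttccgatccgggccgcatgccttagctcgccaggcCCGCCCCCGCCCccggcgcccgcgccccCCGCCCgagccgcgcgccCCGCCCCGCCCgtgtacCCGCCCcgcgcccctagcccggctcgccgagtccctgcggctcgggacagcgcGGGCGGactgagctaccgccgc
All 3 windows are rich in G and C, 77.3% in Adamts3 and Adamts2 and 76.7% in Adamts14, against a median of 52.7% over the 32851 mouse promoters of the table. The CG dinucleotide occurs 41 times in Adamts3, 41 times in Adamts2 and 44 times in Adamts14, against a median of 7. The SP1 box occurs once in Adamts3, 5 times in Adamts2 and 7 times in Adamts14, and 35.7% of all promoters hold it. Searched on both strands, the CCAAT box by its letters CCAAT, the TATA box as TATAAA, the AP-1 site as TGANTCA and the RUNX site as TGTGGT had no match in the 3 windows. These 4 are held by 37.4%, 13.6%, 7.81% and 16.8% of all promoters. The AP-1 letters were found in 13 of the 49 matched genes: 8 of 18 Mmp genes, among them the collagenase Mmp13 and the stromelysins Mmp3 and Mmp10, 5 of 17 Adam genes, 0 of 10 Adamts genes and 0 of 4 Timp genes.

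Levels between genes were compared on the authors' RPKM values, which are per length. The most abundant members in muscle were inhibitors and a few proteases. Over all 12 libraries the mean RPKM was 32.8 for Timp2, which also helps MMP14 to activate pro-MMP2, 32.0 for Adam9, a membrane sheddase, 27.5 for Timp4, the TIMP known from heart and muscle, and 25.8 for the matrix-bound Timp3. Next came the gelatinase Mmp2 with 14.9 RPKM and Adamts1, which cleaves aggrecan and versican, with 14.7. The sheddase Adam10 followed with 6.74 RPKM, the membrane-type metalloproteinases Mmp15 and Mmp14 with 5.71 and 5.69, and Adam17, the TNF-converting enzyme, with 4.72. Adamts3 was among the scarce members, with a mean of 0.288 RPKM.

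Each family was led by 1 or a few genes. Mmp2 made up 50.2% of the summed Mmp RPKM in young muscle, 43.4% in old vehicle and 41.9% in D+Q. Adam9 made up 62.4%, 60.0% and 60.2% of the Adam sum in the same order, and Adamts1 55.7%, 65.0% and 61.5% of the Adamts sum. The summed Timp RPKM was, as mean ± SD of 4 libraries, 92.1 ± 3.42 in young muscle, 86.4 ± 10.9 after vehicle and 83.7 ± 5.91 after D+Q. The summed Mmp RPKM was 33.8 ± 6.50, 33.4 ± 3.30 and 31.9 ± 3.08. The ratio of the Timp sum to the Mmp sum, taken library by library, was 2.84 ± 0.752, 2.603 ± 0.398 and 2.66 ± 0.437, so the 3 group means of this ratio lay within 1 SD of each other.

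**Figure D1:**
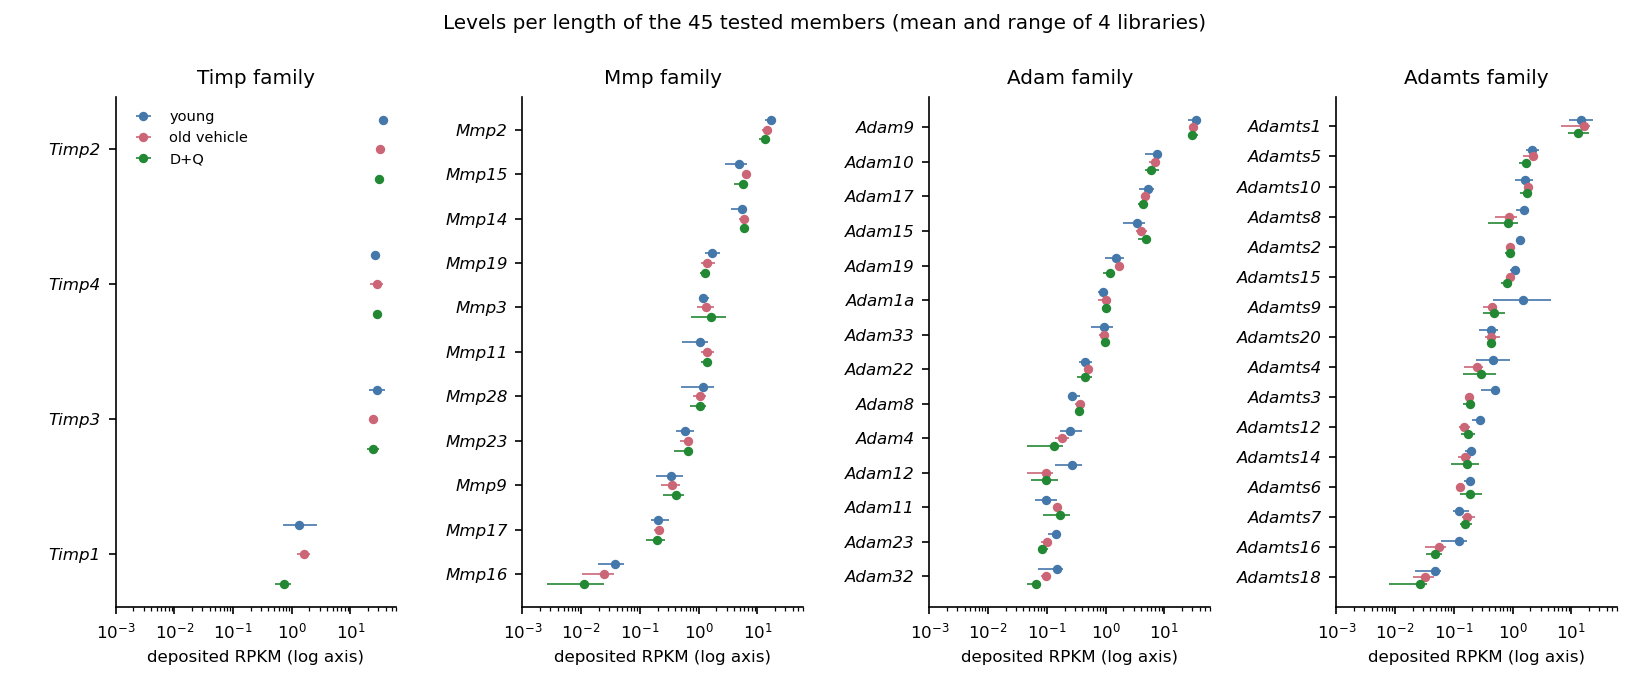
Mean RPKM as deposited (log axis) of the 45 tested genes by family, with points for the means of the 4 libraries of each group and lines from the lowest to the highest library. Timp2, Adam9, Timp4 and Timp3 lie near 30 on this axis. The groups lie close together for most genes, with young set apart from both old groups for Adamts3 and Adamts2.

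Of the 79 genes, 45 had enough reads to be tested: 11 of 23 Mmp, 14 of 33 Adam, 16 of 19 Adamts and 4 of 4 Timp genes. The other 34 were scarce, and the highest total over all 12 libraries was 101 reads, for the macrophage metalloelastase Mmp12, and 15 had 0 reads in every library. None of the 4 interstitial collagenases was tested: Mmp1a and Mmp1b had 0 reads, Mmp13 had 53 and the neutrophil collagenase Mmp8 had 71. Of the 21 Adam genes known mainly from the reproductive tract, 3 were tested and 10 had 0 reads. Mmp7, Mmp20 and Adam28 also had 0 reads. Among the rest, Mmp27 had 96 reads, Adamts17 66, Adam5 64, Mmp25 59, Adam21 36, Adam3 32, Adamts19 18, Mmp24 12 and Mmp10 7. A further 7 genes had 1 to 9 reads each.

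The first comparison asked how old vehicle muscle differed from young muscle. Adamts3 fell, and it was the one member past the threshold. Its CPM was 3.66, 2.36, 4.22 and 4.53 in the young libraries, 1.23, 1.35, 1.46 and 1.36 in old vehicle and 1.19, 1.61, 1.76 and 1.44 in D+Q. Every young library was above every old library, and the 2 old groups overlapped. Old vehicle was 2.73-fold lower than young (log2 fold change -1.45 ± 0.21 SE, Benjamini-Hochberg adjusted p = 0.00375, quasi-likelihood test of edgeR). The gene lies on chromosome 5 from 89673841 to 89883334 in the authors' mm10 coordinates. In GENCODE M21, where the gene's start or end differs from the deposited one, its exons overlap no exon of another gene.

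Over all 16146 tested genes 300 passed, 1.86%, of which 195 were higher and 105 (0.65%) lower, against 1 of the 45 members, 2.22%. At an unadjusted p under 0.05 there were 9 of 45 members, 20%, against 16% of all genes, and 8 of the 9 were lower, where 8.81% of all genes were. DESeq2 called 4 members, all lower, Adamts2, Adamts3, Adamts12 and Adam12, against 4.82% of all genes and 2.17% as lower, and limma-voom called Adamts3, against 1.71% of all genes. Old vehicle and young did not overlap for 9.36% of all tested genes and for 6 of the 45 members, 13.3%. All 6 were lower in old vehicle, namely Adamts2, Adamts3, Adamts6, Adamts8, Adamts12 and Adam12, where 5.39% of all genes separated in that direction. By families these were 5 of 16 Adamts genes, 1 of 14 Adam genes, 0 of 11 Mmp genes and 0 of 4 Timp genes. The median log2 fold change was -0.51 over the Adamts genes, -0.05 over the Adam genes, 0.01 over the Mmp genes and -0.03 over the Timp genes, against -0.01 over all tested genes. Of the 16 Adamts genes 11 had a negative fold change, 68.8%, against 51% of all genes.

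The other procollagen N-propeptidases had negative fold changes that did not pass the threshold in edgeR, though DESeq2 called Adamts2. Adamts2, the main enzyme of this role in skin, had 12.3, 14.9, 10.9 and 11.99 CPM in young muscle, 7.61, 7.43, 9.43 and 9.36 in old vehicle and 10.5, 7.16, 9.76 and 7.21 in D+Q. Its young libraries were above all old ones, with a log2 fold change of -0.57 ± 0.16 SE between old vehicle and young (adjusted p = 0.107, edgeR). Adamts14 had 1.12, 0.980, 1.10 and 0.793 CPM in young muscle, 0.617, 0.587, 0.894 and 1.06 in old vehicle and 0.716, 0.945, 1.46 and 0.444 in D+Q, and its groups overlapped.

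**Figure D2:**
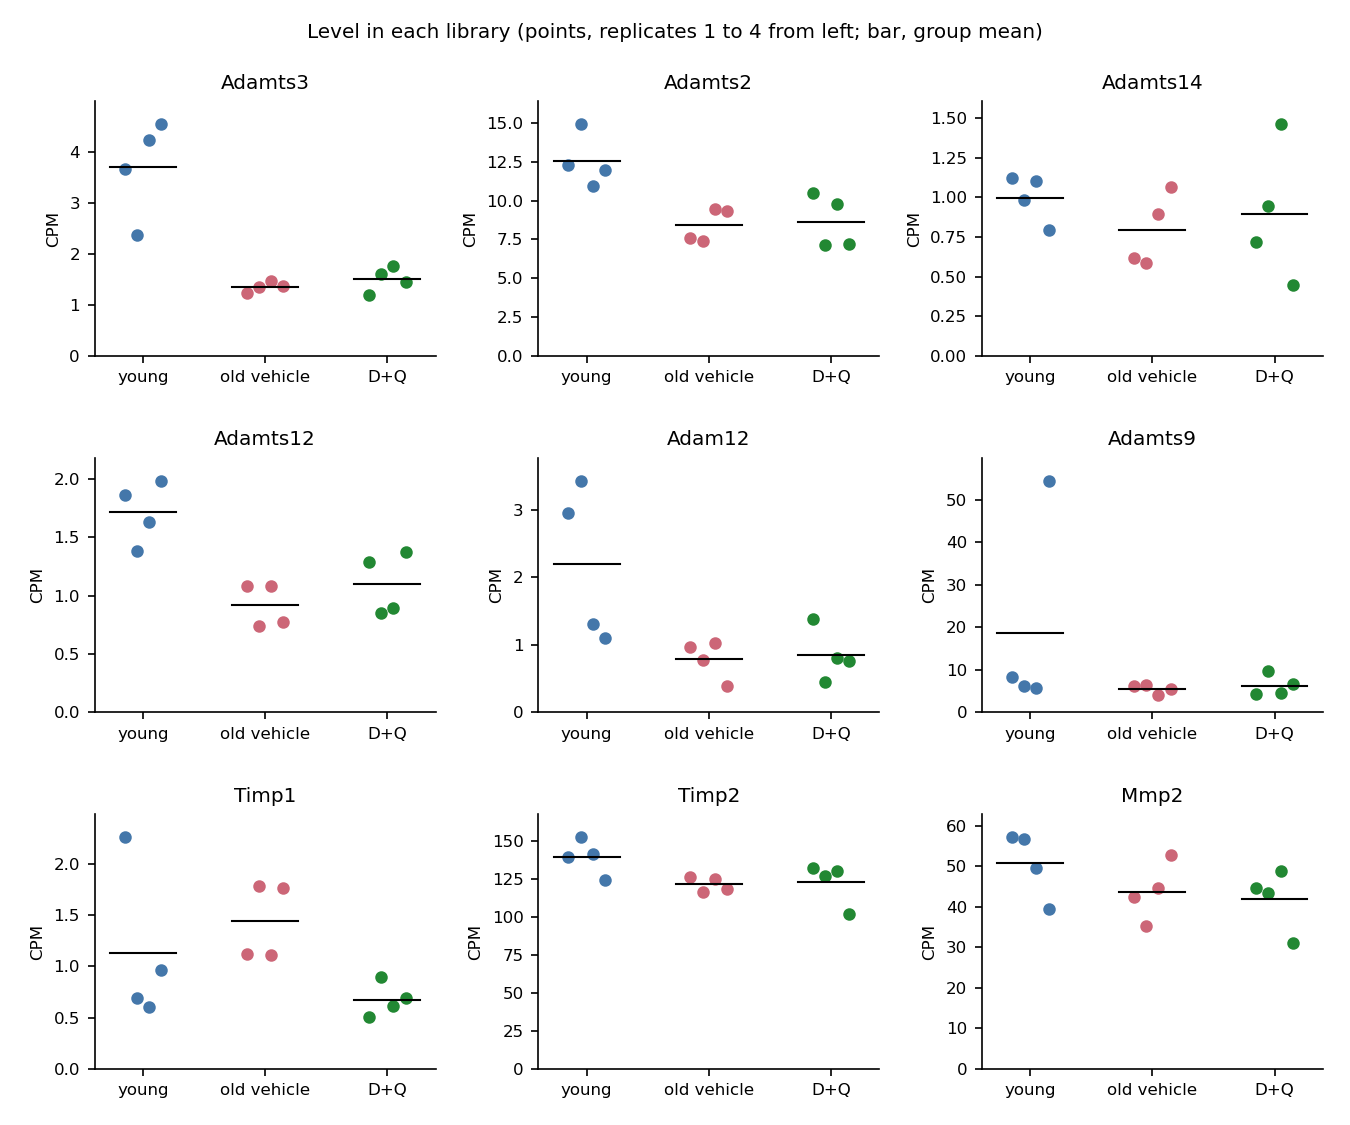
CPM of 9 genes in each library, with the 4 replicates of each group from left to right and a bar at the group mean. For Adamts3, Adamts2 and Adamts12 every young library lies above every library of both old groups, Adamts9 has 1 young library at 54.4 CPM, and for Timp1 the D+Q libraries lie below the old vehicle libraries.

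Among the ADAMTS enzymes that cut cartilage oligomeric matrix protein, Adamts12 had 1.86, 1.38, 1.63 and 1.98 CPM in young muscle, 1.08, 0.739, 1.08 and 0.770 in old vehicle and 1.29, 0.851, 0.894 and 1.38 in D+Q. Young lay above old vehicle in every library, 1.86-fold on the fitted means (log2 fold change -0.90 ± 0.22 SE, adjusted p = 0.0689, edgeR). Adamts7, its relative, had a log2 fold change of 0.41 ± 0.28 SE. Adamts16, for which fibronectin is a reported substrate, had 1.07, 1.07, 0.780 and 0.397 CPM in young and 0.467, 0.326, 0.515 and 0.227 in old vehicle, and the groups overlapped through young replicate 4. Adamts6, a fibrillin microfibril-associated member, had 0.932, 0.758, 0.957 and 0.907 CPM in young and 0.654, 0.565, 0.705 and 0.544 in old vehicle. Those groups did not overlap, and their log2 fold change was -0.52 ± 0.25 SE (adjusted p = 0.33, edgeR).

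The 7 proteoglycanases, which cut aggrecan and versican, did not move together. Adamts1 had 83.1, 52.5, 50.4 and 120 CPM in young muscle, 104, 108, 36.3 and 88.4 in old vehicle and 50.8, 109, 63.2 and 60.3 in D+Q, a spread of over 2-fold inside each group. Adamts5 had 16.0, 14.4, 21.7 and 16.5 CPM in young muscle, 20.7, 20.6, 17.0 and 12.5 in old vehicle and 16.1, 15.2, 10.9 and 14.6 in D+Q, with a log2 fold change of 0.05 ± 0.18 SE between old vehicle and young. Neither gene separated the groups. Adamts9 had the most negative fold change of all members, -1.75 ± 0.64 SE, and it rested on 1 library: the young libraries had 8.37, 6.22, 5.71 and 54.4 CPM against 6.26, 6.43, 3.98 and 5.53 in old vehicle. Without young replicate 4 its log2 fold change was -0.29. Adamts8, with 5.53 to 8.56 CPM in young and 2.36 to 5.41 in old vehicle, did not overlap between these groups (log2 fold change -0.84 ± 0.36 SE, adjusted p = 0.274, edgeR). Of the exon bases of Adamts8 in GENCODE M21, 10.6% lie opposite exons of another gene, and in Adamts9 the share is also over 10%. The strand setting of the counting is not given in the sources used here, so reads of such partners cannot be told apart. Adam1a is the 1 tested member that shares exon bases with genes on its own strand in GENCODE M21, 63.7% of 7508 bases, so its reads are uncertain. The deposited gene differs in start or end and is 3120 bases long, so the share within the counted bases is not known.

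**Figure D3:**
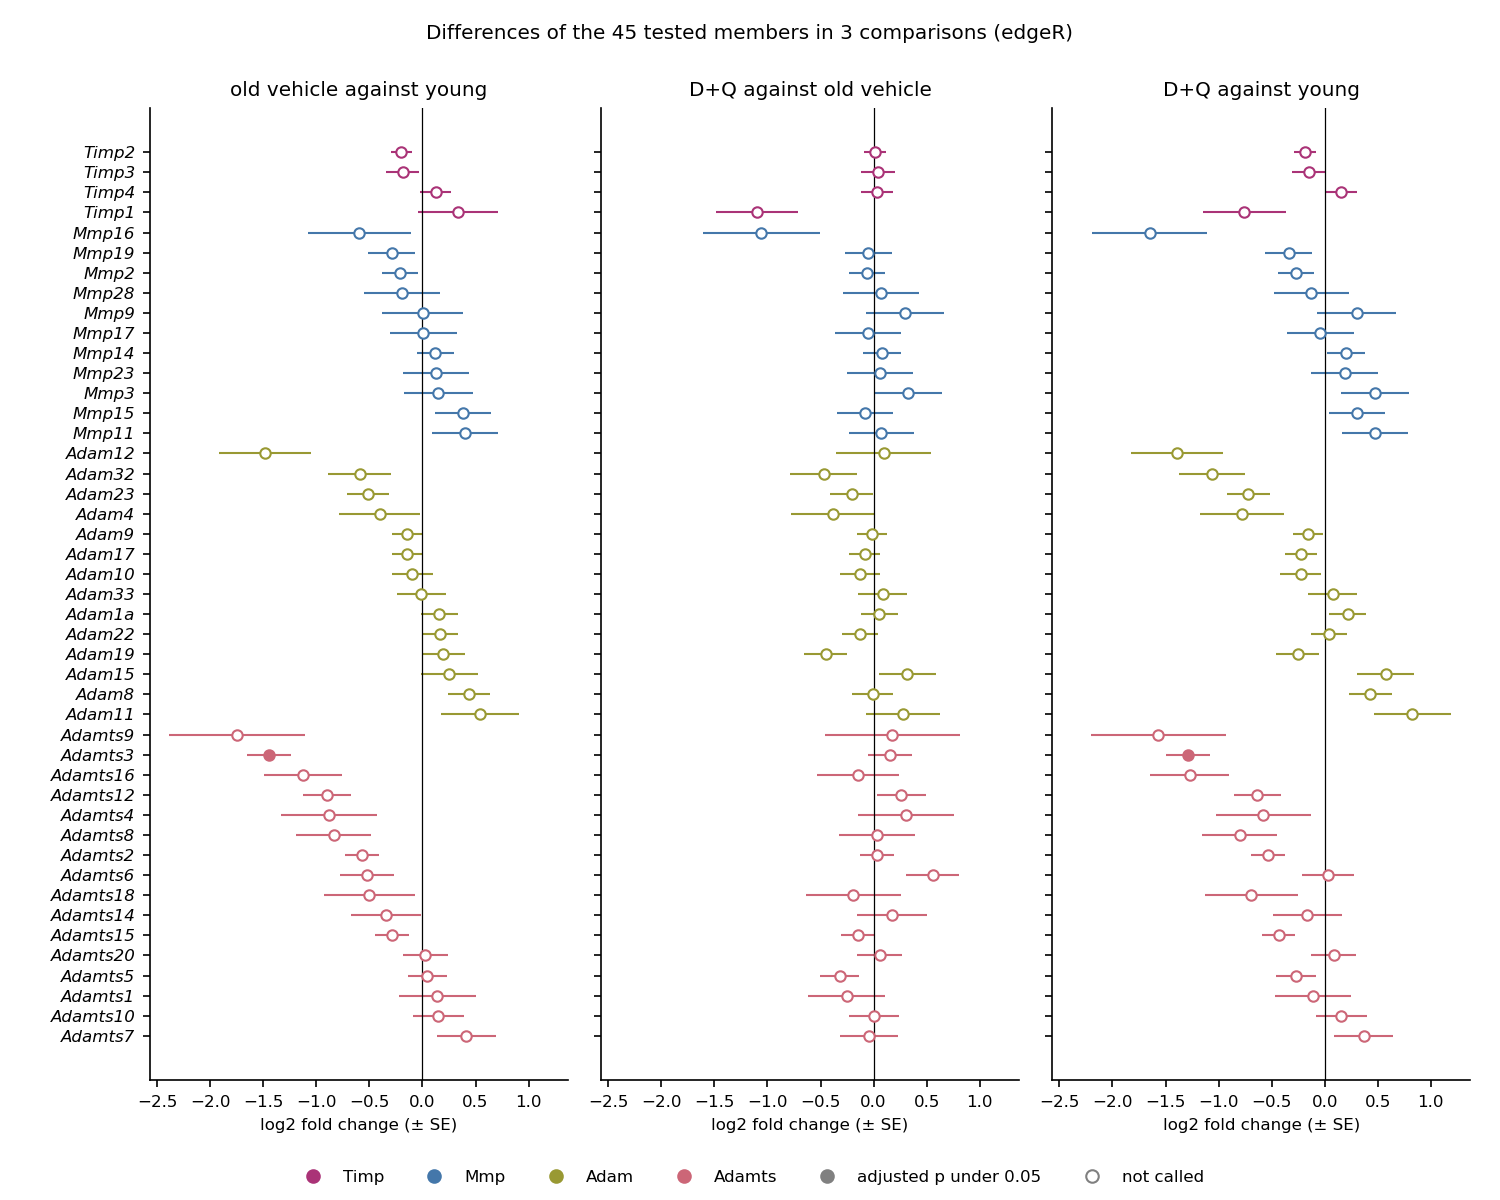
Log2 fold change ± SE of the 45 tested genes in the 3 comparisons, by family, with filled points for an adjusted p under 0.05. Adamts3 alone is filled, in both comparisons with young, and 11 of 16 Adamts genes lie left of 0 in old vehicle against young.

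Of the 14 tested Adam genes none passed in edgeR, 3 had an unadjusted p under 0.05 and DESeq2 called 1 of them, Adam12. Adam12, a sheddase found in activated fibroblasts and regenerating muscle, had 2.96, 3.43, 1.31 and 1.11 CPM in young muscle, 0.972, 0.782, 1.03 and 0.385 in old vehicle and 1.38, 0.449, 0.800 and 0.754 in D+Q. Young and old vehicle did not overlap, but the young libraries fell into a high and a low pair, and the log2 fold change was -1.49 ± 0.43 SE (adjusted p = 0.115, edgeR). The most abundant Adam genes overlapped between the groups. Adam9 had 124, 107, 155 and 161 CPM in young muscle, 131, 126, 120 and 118 in old vehicle and 109, 130, 106 and 145 in D+Q. Adam10 had 33.7, 24.2, 40.1 and 43.2 CPM in young muscle, 36.5, 36.8, 27.3 and 31.3 in old vehicle and 25.6, 32.1, 24.4 and 38.6 in D+Q. Their log2 fold changes between old vehicle and young were -0.15 ± 0.14 SE and -0.10 ± 0.19 SE. Adam17 had 35.3, 28.1, 35.5 and 47.2 CPM in young and 33.3, 36.3, 29.1 and 33.8 in old vehicle, with a log2 fold change of -0.14 ± 0.15 SE and a 95% interval from -0.46 to 0.18. Adam23, a non-catalytic ADAM of neuronal adhesion, had 1.75, 2.34, 2.98 and 3.00 CPM in young and 2.02, 1.91, 1.63 and 1.45 in old vehicle, overlapping through young replicate 1. Adam8, an ADAM of leukocytes, was the member with the smallest p among those with a positive fold change, 0.44 ± 0.20 SE (adjusted p = 0.304, edgeR).

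In old vehicle against young none of the 11 tested Mmp genes passed in edgeR, DESeq2 or limma-voom, and none had an unadjusted p under 0.05 in edgeR. Mmp2 had 57.2, 56.7, 49.6 and 39.4 CPM in young muscle, 42.3, 35.2, 44.5 and 52.9 in old vehicle and 44.8, 43.3, 49.0 and 30.9 in D+Q. The groups overlapped, and the log2 fold change between old vehicle and young was -0.21 ± 0.17 SE with a 95% interval from -0.58 to 0.15. Mmp14, which activates pro-MMP2 at the cell surface, had 14.7, 17.2, 14.1 and 8.98 CPM in young muscle, 14.9, 12.5, 16.7 and 15.9 in old vehicle and 17.4, 14.4, 17.1 and 14.2 in D+Q. Mmp15 had 24.2, 30.5, 18.3 and 11.8 CPM in young muscle, 25.7, 24.7, 26.6 and 33.9 in old vehicle and 33.1, 26.2, 28.8 and 16.5 in D+Q. In both membrane-type genes young replicate 4 was the lowest library, and the groups overlapped. The gelatinase Mmp9, known from leukocytes, had a log2 fold change of 0.00 ± 0.38 SE, and the stromelysins Mmp3 and Mmp11 had 0.15 ± 0.32 SE and 0.40 ± 0.31 SE.

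None of the 4 Timp genes passed in old vehicle against young in edgeR, DESeq2 or limma-voom, and 0 of 4 had an unadjusted p under 0.05 in edgeR. Timp2 had 139, 153, 142 and 124 CPM in young muscle, 126, 116, 125 and 118 in old vehicle and 132, 127, 130 and 102 in D+Q. Only young replicate 4 lay inside the old vehicle range, and the log2 fold change was -0.20 ± 0.10 SE (adjusted p = 0.349, edgeR). Timp3 had 196, 178, 226 and 302 CPM in young muscle, 220, 206, 192 and 174 in old vehicle and 174, 206, 194 and 241 in D+Q. Timp4 had 34.0, 45.9, 32.5 and 33.8 CPM in young muscle, 46.6, 35.8, 45.2 and 31.8 in old vehicle and 41.0, 36.5, 40.2 and 45.4 in D+Q. Both overlapped between the groups. Of the exon bases of Timp3, 21.3% lie opposite those of Syn3, inside which the gene is nested.

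The second comparison asked whether D+Q muscle differed from old vehicle muscle. No gene passed in edgeR, 0% of 16146, and 0 of 45 members. At an unadjusted p under 0.05 there were 349 genes, 2.16%, and 3 of 45 members, 6.67%, of which 2 were lower, where 1.16% of all genes were. DESeq2 called 11 genes, 0.0682%, none of them a member, and limma-voom called 0. Old vehicle and D+Q did not overlap for 2.17% of all genes and for 3 members, Timp1, Adam19 and Adam32, all lower in D+Q, where 1.12% of all genes separated in that direction. The median log2 fold change was 0.01 over the 45 members and 0.01 over all genes.

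Timp1, an inhibitor that stressed and inflamed tissue induces, had the largest of these differences. It had 2.26, 0.691, 0.603 and 0.964 CPM in young muscle, 1.12, 1.78, 1.11 and 1.77 in old vehicle and 0.501, 0.898, 0.612 and 0.688 in D+Q. Every D+Q library was below every old vehicle library, while young replicate 1 was above all others. The fitted mean of D+Q was 2.14-fold lower than that of old vehicle (log2 fold change -1.10 ± 0.39 SE, 95% interval from -1.94 to -0.26, unadjusted p = 0.0146, adjusted p = 1 in edgeR). Adam19, a sheddase of neuregulins, had 12.8, 11.5, 11.9 and 12.1 CPM in old vehicle and 9.26, 9.50, 10.4 and 6.23 in D+Q, against 11.5, 10.1, 13.8 and 6.74 in young (log2 fold change -0.45 ± 0.20 SE between D+Q and old vehicle, adjusted p = 1, edgeR). Of its exon bases, 10.1% lie opposite those of other genes. Adam32, known from testis, was scarce, with 0.249 to 0.325 CPM in old vehicle and 0.141 to 0.239 in D+Q. Adamts6 had 0.740, 0.851, 0.635 and 1.40 CPM in D+Q and overlapped with old vehicle, and the log2 fold change was 0.56 ± 0.25 SE (adjusted p = 1, edgeR).

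Adamts3 did not pass between D+Q and old vehicle: its log2 fold change was 0.15 ± 0.21 SE with a 95% interval from -0.30 to 0.61. Adamts2 had 0.03 ± 0.16 SE, with an interval from -0.32 to 0.38, and Adamts12 0.26 ± 0.23 SE, with an interval from -0.23 to 0.75. Mmp2 and Timp2 had log2 fold changes of -0.06 ± 0.17 SE and 0.01 ± 0.10 SE. The membrane-type Mmp16 was near the limit of counting, with 0.443, 0.178, 0.284 and 0.368 CPM in young muscle, 0.243, 0.0869, 0.190 and 0.317 in old vehicle and 0.0955, 0.213, 0.0706 and 0.0222 in D+Q. The last of these is below the level of 3 reads.

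Compared with young, D+Q muscle shared its reference libraries with the first comparison, so the values stand side by side and are not separate evidence. Adamts3 fell again as the one member called, 2.45-fold lower in D+Q (log2 fold change -1.29 ± 0.21 SE, adjusted p = 0.0128, edgeR), where 144 of all genes passed, 0.892%, and 0.365% as lower. Without young replicate 3 this call was lost, as it was in a fit of these 2 groups alone and without young replicate 4 and D+Q replicate 4 together (adjusted p up to 0.0799 over all settings). The groups did not overlap for 3 members, Adamts2, Adamts3 and Adamts12, all lower, against 6.69% of all genes and 3.83% as lower. At an unadjusted p under 0.05 there were 12 of 45 members against 17.8% of all genes, and 11 of the 12 were lower, where 8.78% of all genes were. DESeq2 called 5 members, all lower, against 3.78% of all genes, with 288 of 16138 genes called as lower, and limma-voom 1, Adamts3, against 0.749%. The log2 fold change was -0.53 ± 0.16 SE for Adamts2, -0.72 ± 0.20 SE for Adam23, -1.06 ± 0.31 SE for Adam32, -1.27 ± 0.37 SE for Adamts16, -1.39 ± 0.43 SE for Adam12 and -1.65 ± 0.54 SE for Mmp16, with adjusted p from 0.122 to 0.181 in edgeR. The non-catalytic Adam11 was the one with a positive value, 0.83 ± 0.36 SE.

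The substrates and partners of these enzymes gave the following counts. Of 26 tested collagens and other matrix substrates, 4 fell in old vehicle against young in edgeR, Col1a2, Col3a1, Col5a2 and Fbn1, 10 were lower at an unadjusted p under 0.05, DESeq2 called 5, and the median log2 fold change of the list was -0.25. Over all tested genes 0.65% fell in edgeR and 8.81% were lower at an unadjusted p under 0.05. DESeq2 called 4.82% of all genes, and 2.17% as lower. Col3a1, a fibrillar procollagen, had 241 ± 27.9 CPM in young muscle, 108 ± 20.7 in old vehicle and 90.1 ± 27.1 in D+Q (mean ± SD of 4 libraries). Col1a2 had 161 ± 30.4, 71.8 ± 14.4 and 61.7 ± 17.9 CPM. Both were 2.24-fold lower in old vehicle than in young (adjusted p = 0.0164 and 0.0197, edgeR). In D+Q against young 5 of the 26 fell, the same 4 and Col6a3, where 0.365% of all genes fell. Among 14 tested genes of other matrix proteases and procollagen processing, Pcsk5, a proprotein convertase, fell in old vehicle against young (1.86-fold lower, adjusted p = 0.0142, edgeR) and in D+Q against young (1.74-fold lower, adjusted p = 0.041). Bmp1, the procollagen C-proteinase, had a log2 fold change of -0.02 ± 0.25 SE between old vehicle and young, and Furin, which activates many of these enzymes, 0.49 ± 0.31 SE.

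Of 26 tested partners and substrates of ADAM shedding, App rose in old vehicle against young, from 100.5 ± 8.47 to 175 ± 22.8 CPM (SD, n = 4, adjusted p = 0.0102, edgeR), and it is a substrate of ADAM10 and ADAM17. In that list DESeq2 called 5 genes, App, Dll1, Tnf, Hbegf and Frmd8, 5 were higher and 1 lower at an unadjusted p under 0.05 in edgeR, where 7.21% of all genes were higher, and the median log2 fold change was 0.30. The counts of the lists that follow are for old vehicle against young unless another comparison is named. The plasminogen system had 0 of 6 tested genes past the threshold in edgeR, 2 by DESeq2 and 0 by limma-voom. At an unadjusted p under 0.05 it had 3 (1 higher and 2 lower, against 16% of all genes). Its summed CPM was 205 to 245 in young against 181 to 194 in old vehicle. Of 4 tested genes around the VEGF-C that ADAMTS3 cuts, namely Vegfc, its receptors Flt4 and Nrp2 and the ADAMTS3 cofactor Ccbe1, 0 passed in edgeR, DESeq2 or limma-voom and 1, Vegfc, had an unadjusted p under 0.05, with a log2 fold change of -0.45 ± 0.17 SE. The non-TIMP inhibitors had 0 of 5 past the threshold by any of the 3 tools in old vehicle against young. They had 2 at an unadjusted p under 0.05, against 16% of all genes, and the membrane-anchored inhibitor Reck had a log2 fold change of -0.24 ± 0.14 SE. In D+Q against young DESeq2 called 1 of the 5, Spock2. The ADAMTS-like proteins, which lack the protease domain, had 0 of 5 by any of the 3 tools and 1 of 5 at an unadjusted p under 0.05, near the 16% of all genes. Of 14 cathepsins and cystatins 0 passed in edgeR and in limma-voom. At an unadjusted p under 0.05 there were 7, 5 of them higher and 2 lower, against 16% of all genes. DESeq2 called 2, against 4.82% of all genes. In D+Q against young, Ctso fell 1.6-fold (adjusted p = 0.0448, edgeR). In D+Q against old vehicle, none of these lists held a gene past the threshold by edgeR, DESeq2 or limma-voom, and the unadjusted count was 0 or 1 in each.

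Beside Adamts3, 4 of 14 markers of fibroblasts and 1 of 11 of tendon cells fell in old vehicle against young in edgeR, where 0.65% of all genes fell. At an unadjusted p under 0.05, 7 of the 14 and 9 of the 11 were lower, against 8.81% of all genes, and DESeq2 called 4 and 5. The median log2 fold change was -0.33 over the fibroblast list and -0.89 over the tendon list, and 11 of the 14 and 9 of the 11 were negative. The tendon markers Scx and Comp went the other way, from means of 1.29 and 6.40 CPM in young to 1.97 and 8.15 in old vehicle. Scx was also higher in D+Q than in young at an unadjusted p under 0.05 in edgeR. In the fibroblast list Pi16, Smoc2 and Gsn had higher means in old vehicle than in young. The 14 fibroblast and fibro-adipogenic markers summed to 2025 to 2519 CPM in young muscle, 1490 to 1971 in old vehicle and 1493 to 2129 in D+Q, none of them at 0 in a group. Of the 14, 4 fell in old vehicle against young: Col1a2, Col3a1, Cd34 and Fbn1, of which 3 are also in the substrate list. The 11 tendon cell markers summed to 406 to 542 CPM in young muscle, 223 to 412 in old vehicle and 200.1 to 364 in D+Q, and the one called in edgeR was Col11a1; DESeq2 also called Fmod, Cilp2, Kera and Chad. The part of these cells in the levels of Adamts3 and the other Adamts genes was not tested. Macrophage markers, 11 genes, summed to 107 to 152, 117 to 186 and 108 to 143 CPM, and Cd68 rose in old vehicle against young (1.82-fold, adjusted p = 0.0176, edgeR). The median log2 fold change of the list between these groups was 0.52, and 1 of the 11 was negative. At an unadjusted p under 0.05 in edgeR, 5 were higher and 0 lower, where 7.21% of all genes were higher. In D+Q against old vehicle all 11 had a negative log2 fold change, with a median of -0.15, where 7588 of all 16146 tested genes were negative. Their summed CPM was 186, 125, 117 and 129 in the old vehicle libraries and 108, 125, 138 and 143 in D+Q. These sums overlapped, with a median of 127 in old vehicle and 131 in D+Q, while all 11 genes had a lower mean in D+Q. In that comparison 1 of the 11, Cd68, had an unadjusted p under 0.05 in edgeR, and DESeq2 called 0. Cd68 did not overlap there, with 4.08 to 4.28 CPM in old vehicle and 2.22 to 3.26 in D+Q (unadjusted p = 0.00173, adjusted p = 1, edgeR). The part of macrophages in the levels of Timp1 and Adam19 was not tested. Satellite cell markers, 8 genes, summed to 31.6 to 51.3 CPM in young, 58.4 to 107 with vehicle and 45.6 to 80.3 with D+Q. Among them Myog, a factor of muscle differentiation, rose in both comparisons with young, from a mean of 4.43 CPM to 28.6 and to 14.0 (adjusted p = 0.00242 and 0.0453, edgeR), and the list's median log2 fold change was 0.11 in old vehicle against young. The list did not move together there: 4 of the 8 had a negative fold change. Myod1 went from a mean of 14.6 CPM in young to 31.3 in old vehicle. Pax7 went from 2.69 to 1.80 and Calcr from 0.774 to 0.308. At an unadjusted p under 0.05 in edgeR, 2 were higher and 1, Calcr, was lower. Limma-voom called 1 of the 8 in old vehicle against young and 0 in D+Q against young. In D+Q against old vehicle 1 of the 8, Myog, was lower at an unadjusted p under 0.05 in edgeR, where 1.16% of all genes were. None of the 3 tools called a gene of the list in that comparison. Of the mast cell, endothelial, pericyte and Schwann cell lists none held a gene past the threshold in edgeR in any comparison, with 0 to 2 per list at an unadjusted p under 0.05, and DESeq2 called 1, Pmp22, in old vehicle against young. Neutrophil markers, 10 genes, summed to 0.822 to 2.74 CPM in young and 1.33 to 2.09 in old vehicle, and to 25.4 in D+Q replicate 4 against 1.58 to 2.72 in the other D+Q libraries. The neutrophil marker Ly6g was at 0 in young and old vehicle and Mpo at 0 in both old groups. That library also held 19 of the 71 reads of Mmp8 and the highest Mmp3 level, 5.01 CPM, and their relation was not tested.

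**Figure D4:**
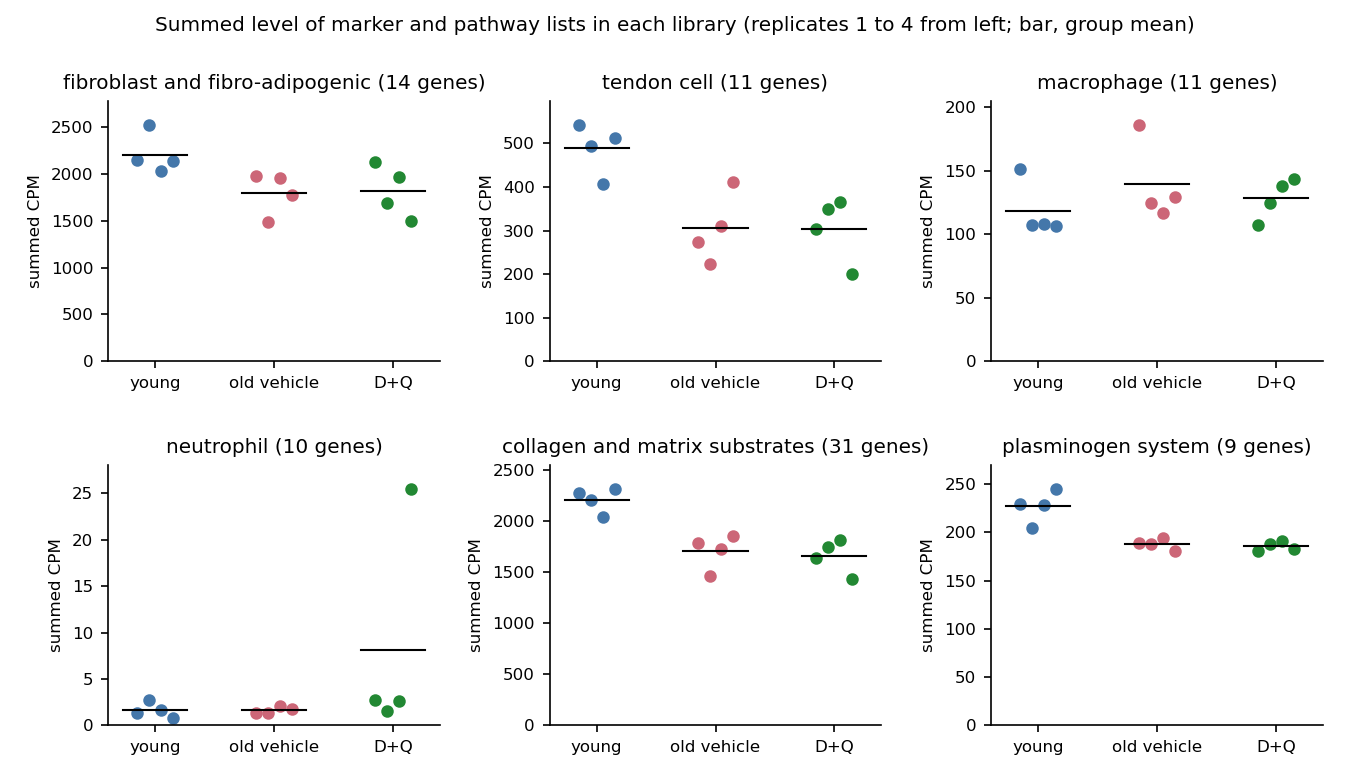
Summed CPM of 6 gene lists in each library, with the 4 replicates of each group from left to right and a bar at the group mean. The group means of the tendon and matrix substrate sums are highest in young, the plasminogen sums of young lie above those of both old groups, and 1 D+Q library stands at 25.4 CPM for neutrophil markers.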

How the data were processed

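Quadriceps mRNA was sequenced from polyA libraries made with a stranded kit, per the labels' protocols. STAR 2.6.1c, Subread, featureCounts 1.5.1 and mm10 are named in the submitters' processing notes; not given in the sources used here are the strand setting, any filters and the annotation's version. As deposited, the gene table of the authors holds whole read counts, used for every test and for CPM, and a further table holds RPKM values, used for levels between genes, whose columns were matched to groups only.

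Tests used edgeR 4.0.16 in R 4.3.3: filterByExpr (minimum count 10, total 15) kept 16146 genes, TMM gave the scaling, and all 12 libraries entered 1 quasi-likelihood fit with a mean per group. A call is a p under 0.05 after Benjamini-Hochberg adjustment over all tested genes. CPM values use TMM-scaled totals. The members, the gene lists and the tests were chosen with earlier results of these data known. Genes given in full are Adamts3, Mmp2, Timp2, the Timp genes, called members, the 3 most abundant of each family and the 5 smallest p of each comparison; others were named after their values were seen. Other settings were DESeq2 1.42.0, limma-voom (limma 3.58.1), other scalings and filters, 2-group fits, a replicate block and leaving out each library; 2 more were chosen after seeing the data. Exon overlaps come from GENCODE M21 on GRCm38, where 50 of the 79 genes have the deposited start and end, and promoters from RefSeq.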

Additional observations from a re-analysis of the deposited data

Results flagged for a closer look

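Among the 45 tested genes in 3 groups, 135 groups of 4 values were looked at, and in 8 of them 1 library stood far from the other 3; chance alone gives about 5% of such groups. Young replicate 4 was high for Adamts9, 54.4 CPM against 5.71 to 8.37 in the other young libraries, and for Mmp3, 2.66 against 1.84 to 1.95. Young replicate 2 was high for Timp4, 45.9 CPM against 32.5 to 34.0, for Mmp17, 1.49 against 0.652 to 0.769, and for Adamts7, 1.20 against 0.595 to 0.653. D+Q replicate 4 was low for Timp2, 102 CPM against 127 to 132, and for Mmp23, 0.865 against 1.73 to 1.89. Old vehicle replicate 4 was low for Adamts15, 4.94 CPM against 5.45 to 5.54.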

How the results depend on the processing

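Adamts3 was called in old vehicle against young under all 22 other settings, with log2 fold changes from -1.64 to -1.33 and adjusted p from 1.12e-07 to 0.0194. In D+Q against young it was called in 18 of 22, and not in the 2-group fit, with the replicate block, without young replicate 3, or without young replicate 4 and D+Q replicate 4. DESeq2 called 4 members in old vehicle against young (Adamts3, Adam12, Adamts12 and Adamts2) and 5 in D+Q against young (Adamts3, Adam12, Adam23, Adamts16 and Adamts2), all lower. Leaving out each library in turn gave 1 to 2 and 0 to 4 members, with the highest counts without young replicate 2, which added Adamts12 in the first comparison and Adam23, Adam32 and Mmp16 in the other. Members called in D+Q against young were 0 in the 2-group fit, with the replicate block and without young replicate 4 and D+Q replicate 4. Over all genes, DESeq2 called 778, 11 and 610 in old vehicle against young, D+Q against old vehicle and D+Q against young. The 2-group fit called 188 and 25 in the comparisons with young. The fit without young replicates 2 and 4 called 142 and 93, and that without young replicate 4 and D+Q replicate 4 called 59 in D+Q against young. Leaving out each library gave 146 to 1022 and 44 to 1935. Both highest counts came without young replicate 2, and the next highest, 353 and 145, without D+Q replicate 4. The causes were not tested.

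Replicate numbers did not pair the libraries: deviations of same-numbered libraries correlated from -0.40 to 0.41. With the replicate block 141, 0 and 35 genes were called. Of the 135 log2 fold changes of members, 55 had another sign in at least 1 setting, always where the value was not called, and none was reversed past the threshold. No other scaling moved the median of all genes by more than 0.1. At these depths, differences in genes near 0.1 CPM, such as Mmp16, rest on a few reads.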

Other observations

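The deposited RPKM values, which are scaled by library totals, and the TMM-scaled CPM values gave the same order of the 3 group means for 33 of the 45 tested members. They gave the same direction of old vehicle against young for 44, Adamts20 being the exception, and of D+Q against old vehicle for 35. Timp2, Timp3 and Timp4 were among the 10 whose direction between D+Q and old vehicle depended on the scale, and Adamts3, Adamts12, Timp1 and Adam19 were not. Separation of groups on CPM did not always hold on RPKM. Adamts12 overlapped there between D+Q and young, with a highest D+Q value of 0.228 and a lowest young value of 0.208. Adamts8 overlapped between old vehicle and young, with a highest old vehicle value of 1.21 and a lowest young value of 1.12.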
